A study of Homo sapiens with 3 samples.

Results

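The genes of the sliding clamp of DNA replication and of the complexes that load and unload it were examined in LNCaP prostate carcinoma cells treated with siRNAs against a chimeric transcript. The set holds 10 genes, taken by name from the 18417 genes that a single-gene probe set annotation gave for the arrays: PCNA, the clamp itself; RFC1, RFC2, RFC3, RFC4 and RFC5, the subunits of the clamp loader; CHTF18, DSCC1 and ATAD5, subunits of alternative loaders; and FEN1, a nuclease that works on the clamp. Each of the 10 was measured by 1 probe set, and all 10 passed the filter on dim genes. The rule takes the genes by function, and the set was chosen with earlier results of these data known.

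LNCaP is an established, androgen-responsive human cell line from a lymph node metastasis of a prostate carcinoma. The cells were transfected with siSE1 (1 array) or siSE2 (1 array), siRNAs against SLC45A3-ELK4, a chimeric RNA joining sequence of 2 neighbouring genes, or with a negative control siRNA (1 array). RNA was taken after 72 hours, and all 3 groups share the cell line, the medium with serum and the RNAiMAX transfection. The siRNA arrays formed 1 group (n = 2) against the control (n = 1). The transfection field of the siSE2 array names siSE1, while its title names siSE2. The title was followed, and under either reading the array belongs to the same group. Nothing in the labels says that the arrays came from separate cultures, so p-values cover only these arrays, whose spread may be technical. For each gene this is the spread between the siSE1 and siSE2 arrays, moderated by limma towards the variance of all tested genes. The prior had 8.46 degrees of freedom against 1 residual, so most of each variance is borrowed from other genes. The arrays had medians of 5.84 (siSE1), 5.84 (siSE2) and 5.80 (control) on the log2 scale. Among luminal prostate markers, 7 of 11 were measured. KLK2, KLK3, HOXB13, STEAP2, SLC45A3, KRT8 and KRT18 averaged 10.01 with siSE1, 10.04 with siSE2 and 10.10 on the control array. Changes in both directions lie under these averages. The mean of the siRNA arrays minus the control ran from -0.46 (SLC45A3, which supplies part of the chimeric RNA) to 0.43 (KRT8). None of these 7 luminal genes passed the test of the siRNA arrays against the control (2 were lower and 2 higher at an unadjusted p under 0.05 by limma).

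The clamp is a ring that encircles DNA and tethers DNA polymerases and other enzymes to it. Replication factor C opens the ring and closes it around the primed template at the expense of ATP. Its small subunits, RFC2 to RFC5, are shared with the alternative loaders, in which RFC1 is replaced by CHTF18, which acts with DSCC1 and CHTF8 and is linked to sister chromatid cohesion, by ATAD5, which takes the clamp off DNA, or by RAD17, which loads a separate checkpoint clamp. FEN1 binds PCNA and trims the flaps that arise between Okazaki fragments. Many of these genes are transcribed mostly in cells that are entering or passing through S phase. In a bulk sample, fewer cells in that phase and less RNA per cell cannot be told apart.

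All 10 genes read lower on both siRNA arrays than on the control array, and the clamp loader genes RFC5 and RFC4 fell. RFC5 fell 1.97-fold (log2 difference -0.98 ± 0.15) and RFC4 fell 1.86-fold (-0.89 ± 0.15), each the mean of siSE1 and siSE2 minus the control (moderated SE from limma, n = 2 against 1). The other 8 genes, with differences from -0.26 to -0.77, did not reach the threshold of 0.05 on the adjusted p of limma, fitted to all 12892 genes kept, with Benjamini-Hochberg adjustment. This fit called 0.714% of all tested genes lower, against 2 of these 10, and 0.248% higher, against 0 of these 10. At an unadjusted p under 0.05 (limma) the set had 9 genes lower and 0 higher, where 11.3% of all genes were lower and 833 of the 12892 were higher. The median difference of the set was -0.50, beside -0.02 for all tested genes. Of all genes tested, 41.7% read below the control on both siRNA arrays, so this direction is common for a single gene. How often 10 genes would share it was not tested. The smaller of the 2 decreases exceeded the gap between siSE1 and siSE2 for all 10 genes, and for 24.9% of all genes. The differences of siSE1 and siSE2 are taken from the same control array and are not independent of each other, and the fit has 1 residual degree of freedom, so the control array is assumed to vary as the siRNA arrays do.

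**Figure D1:**
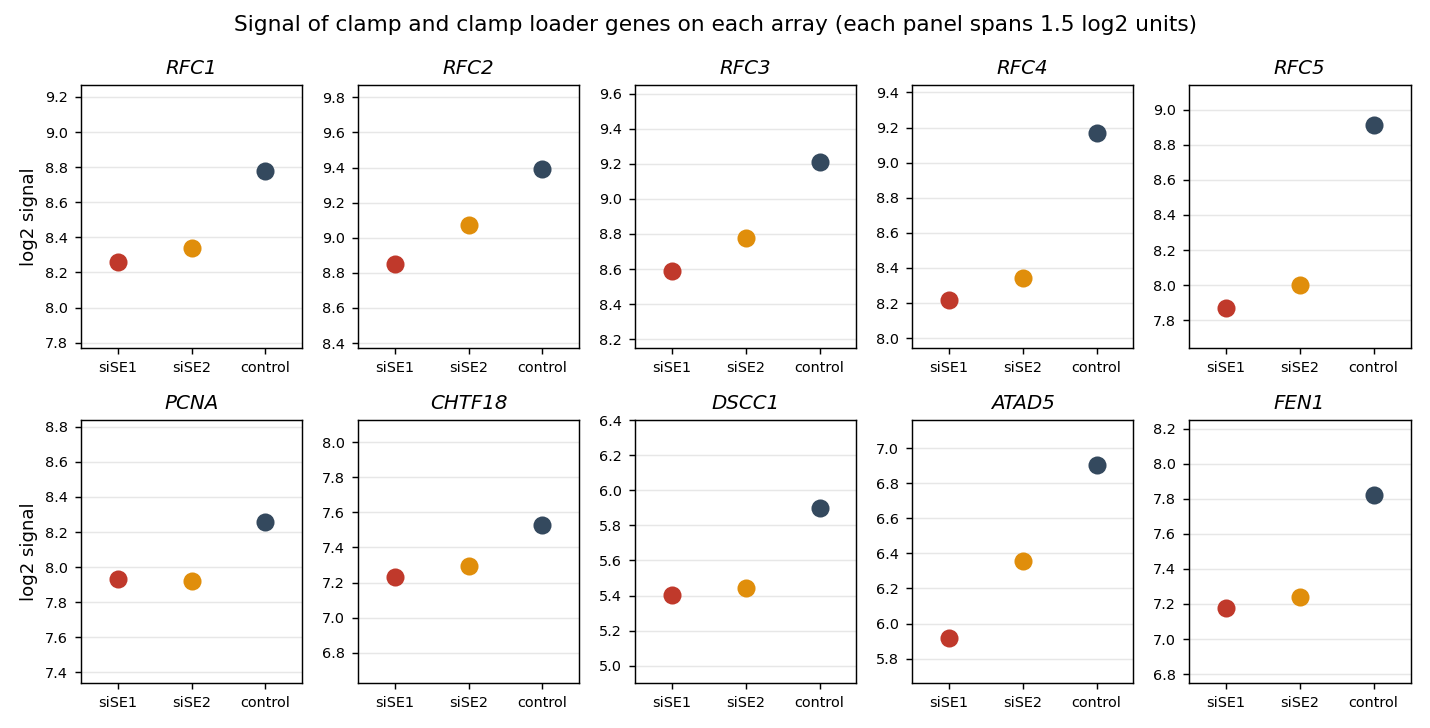
Log2 signal of each gene on the siSE1, siSE2 and control arrays, 1 point per array, with 1 panel per gene. The vertical scale has its own origin in each panel and the same length, so differences within a panel can be compared but levels between genes cannot. The control point lies above both siRNA points in all 10 panels.

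The loader subunits that fell are described first, starting with their promoters. RFC4 and RFC5 encode small subunits of the AAA+ ATPase family. The 250 bases before the RefSeq transcription start are printed for these genes and, beside them, for the large subunit RFC1, which did not pass the test. Capitals mark E2F-type letters (TTNNCGC, where each N is C or G) and ETS-type letters (CCGGAAG), read on both strands. E2F factors are known regulators of S phase genes, and ELK4, which supplies part of the chimeric RNA, belongs to the ETS family. All sequences are from RefSeq, build GRCh38.p14, 5′ to 3′ on the gene's own strand.
RFC4, chr3:186806483-186806732, minus strand: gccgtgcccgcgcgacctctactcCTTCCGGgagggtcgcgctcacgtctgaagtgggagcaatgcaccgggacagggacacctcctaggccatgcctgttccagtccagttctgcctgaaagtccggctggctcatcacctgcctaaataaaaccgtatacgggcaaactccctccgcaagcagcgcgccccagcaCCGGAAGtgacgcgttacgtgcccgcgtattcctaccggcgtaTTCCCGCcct
RFC5, chr12:118016453-118016702, plus strand: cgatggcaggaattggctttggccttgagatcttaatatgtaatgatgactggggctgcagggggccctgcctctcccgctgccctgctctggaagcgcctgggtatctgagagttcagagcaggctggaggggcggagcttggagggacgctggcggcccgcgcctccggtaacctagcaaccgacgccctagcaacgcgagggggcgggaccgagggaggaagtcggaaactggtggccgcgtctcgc
RFC1, chr4:39366363-39366612, minus strand: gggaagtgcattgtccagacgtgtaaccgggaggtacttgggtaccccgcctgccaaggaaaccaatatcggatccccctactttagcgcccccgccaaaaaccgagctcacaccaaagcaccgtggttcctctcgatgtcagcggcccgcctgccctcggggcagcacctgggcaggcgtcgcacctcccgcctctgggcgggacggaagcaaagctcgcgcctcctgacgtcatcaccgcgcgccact
RFC4 holds 1 E2F-type match, 10 to 4 bases before the start, and 2 ETS-type matches, 226 to 220 and 53 to 47 bases before it. RFC5 and RFC1 hold neither, so nothing is in capitals there. Promoters were matched for 8 of the 10 genes, and ATAD5 and DSCC1 were not matched. Of these 8 genes, 3 hold an E2F-type match in this window (RFC3, RFC4 and PCNA), where 10.9% of 35116 RefSeq promoters do, and 1 holds an ETS-type match, where 8.52% do. In RFC3 the match lies 55 to 49 bases before the start. In PCNA, for which RefSeq gives 2 starts, it lies 59 to 53 bases before the upstream start, and the other start has none. The CCAAT letters, known to be bound by NF-Y, are found in 4 of the 8 genes (RFC1, RFC5, PCNA and CHTF18), against 32% of all promoters. The GC box GGGCGG, which overlaps the E2F-type match in RFC4 and in PCNA, is found in 6 of the 8, against 42.6%. A cell cycle element spelled TTTGAA or TTCGAA is found in 0 of the 8, against 14.3%. A gene was counted if any of its starts had a match, while the shares over all promoters count each promoter singly. These matches are letters in a window. No binding was measured.

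RFC5 read 7.87 with siSE1 and 7.999 with siSE2, against 8.91 on the control array (log2 signal). Both siRNA arrays lie close together and well below the control. The difference was significant (limma, adjusted p = 0.0235), with an unadjusted 95% interval from -1.31 to -0.65, and RFC5 had the 32nd lowest difference of the 12892 genes tested.

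RFC4 read 8.22 with siSE1 and 8.34 with siSE2, against 9.17 on the control array. The siRNA arrays again differed by much less than their distance from the control. The difference passed as well (limma, adjusted p = 0.0343), with an interval from -1.22 to -0.57, and it was the 59th lowest. Both calls were lost when no dim genes were filtered out, with limma adjusted p = 0.0958 for RFC5 and 0.118 for RFC4. A rule of size without a test, on the same values, asked for 1.5-fold or more lower with both siRNAs. RFC4 and RFC5 met it, 2 of the 10, where 1.53% of all genes tested did (0.582% were as much higher). FEN1 missed it narrowly, at -0.64 with siSE1 and -0.58 with siSE2, the latter just short of 1.5-fold.

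RFC3, another small subunit of the loader, read 8.59 with siSE1 and 8.78 with siSE2, against 9.21 on the control array. Its difference of -0.53 ± 0.15 had an interval from -0.86 to -0.19 and did not pass (limma, adjusted p = 0.122). RFC2, the remaining small subunit, read 8.85 with siSE1 and 9.07 with siSE2, against 9.39 on the control array. Its difference of -0.43 ± 0.15 had an interval from -0.78 to -0.09 (limma, adjusted p = 0.191). The distance of RFC2 from the control was -0.54 with siSE1 and -0.32 with siSE2. RFC2 and RFC3 had differences of smaller size than RFC4 and RFC5, with overlapping intervals.

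RFC1, the large subunit particular to the replicative loader, read 8.26 with siSE1 and 8.34 with siSE2, against 8.78 on the control array. Its difference was -0.48 ± 0.14 (limma, adjusted p = 0.131), with an interval from -0.80 to -0.16. A log2 contrast of small to large subunits was taken within each array as the mean of RFC2 to RFC5 minus RFC1. Levels of different genes cannot be compared, so its value is not a ratio of subunits and only its shift can be read. This contrast was 0.12 with siSE1 and 0.21 with siSE2, against 0.39 on the control array. The shift was -0.27 with siSE1 and -0.18 with siSE2. RFC4 and RFC5 lay further below the control than RFC1 on both siRNA arrays, and RFC2 and RFC3 did so with siSE1 only. With siSE2, RFC2 (-0.32) and RFC3 (-0.43) lay closer to the control than RFC1 (-0.44). A test of this shift over 3 arrays cannot give an exact permutation p below 0.333.

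**Figure D2:**
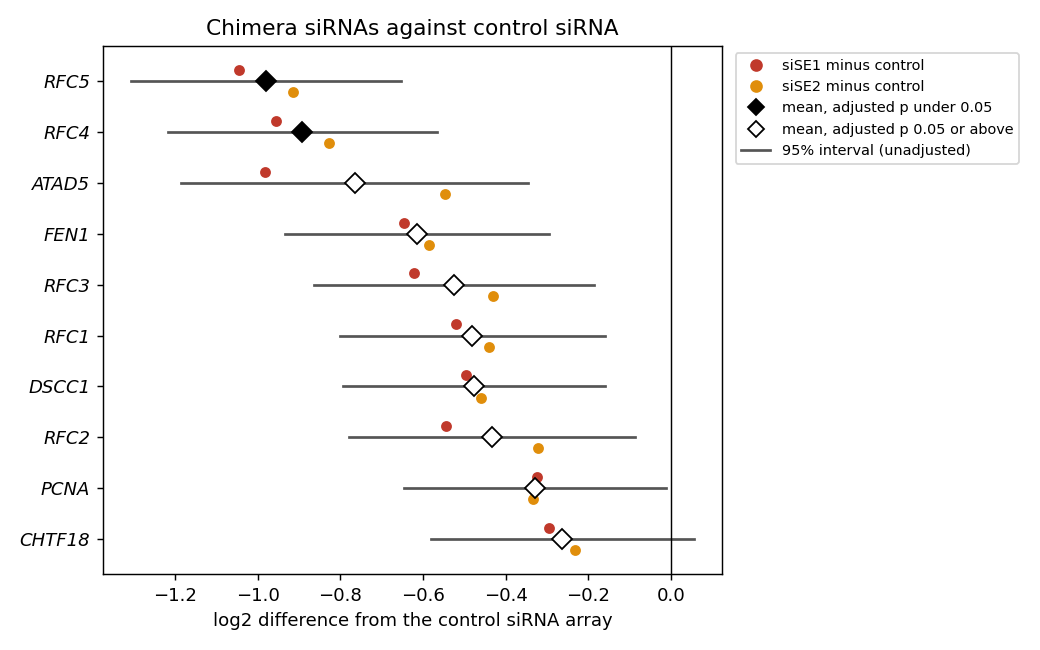
Log2 difference from the control array for each gene, ordered from the lowest mean at the top. Circles give siSE1 and siSE2, diamonds their mean (filled for RFC5 and RFC4, with limma adjusted p under 0.05) and bars the unadjusted 95% interval of the fit. The bar of CHTF18 alone crosses 0.

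PCNA, the clamp, read 7.93 with siSE1 and 7.92 with siSE2, against 8.26 on the control array. The siRNA arrays differed by 0.01, the smallest gap of the set, and PCNA alone read lower with siSE2 than with siSE1. Its difference was -0.33 ± 0.14, with an interval from -0.65 to -0.01 (limma, adjusted p = 0.263), smaller in size than all but that of CHTF18. The clamp gene thus stood closer to the control than RFC4 and RFC5 did. Its interval overlaps that of RFC4 and ends just above that of RFC5, and the difference between these genes was not tested.

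FEN1, the flap endonuclease, read 7.18 with siSE1 and 7.24 with siSE2, against 7.82 on the control array. The siRNA arrays lie 0.06 apart. Its difference of -0.61 ± 0.14 corresponds to 1.53-fold lower and did not pass (limma, adjusted p = 0.0738), with an interval from -0.93 to -0.30.

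Among the alternative loaders, ATAD5, the clamp unloader, read 5.92 with siSE1 and 6.36 with siSE2, against 6.90 on the control array. The siRNAs differed more for ATAD5 than for any other of the 10 genes, by 0.44, and the distance from the control was -0.98 with siSE1 and -0.55 with siSE2. The mean difference of -0.77 ± 0.19, or 1.70-fold lower, was the lowest after those of RFC5 and RFC4 and did not pass (limma, adjusted p = 0.0869, interval from -1.19 to -0.35). DSCC1, of the cohesion-linked loader, read 5.40 with siSE1 and 5.44 with siSE2, against 5.90 on the control array. These readings are dim, near the filter level of 5.12, and the difference was -0.48 ± 0.14 (limma, adjusted p = 0.130). CHTF18, the large subunit of the same loader, read 7.23 with siSE1 and 7.29 with siSE2, against 7.53 on the control array. Its difference of -0.26 ± 0.14 was the smallest of the set, and its interval, from -0.58 to 0.06, includes 0 (limma, adjusted p = 0.367). CHTF8, the remaining partner in that loader, was named after its values were seen, and read 8.86 with siSE1 and 9.02 with siSE2, against 9.05 on the control array.

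The siRNAs could not be compared by a test, with 1 array each. Of the 10 genes 9 read lower with siSE1 than with siSE2, where 51% of all genes tested did. Apart from ATAD5 the gap between siRNAs ran from 0.01 to 0.22.

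The tested genes whose pair of differences lay nearest to those of RFC4 and RFC5 were found by Euclidean distance over the siSE1 and siSE2 differences. Nearest to RFC4 were KIF14, a mitotic kinesin (distance 0.029), MCM4, a subunit of the replicative helicase (0.043), and KIF15, another mitotic kinesin (0.052). Nearest to RFC5 were PKMYT1, a kinase that inhibits CDK1 (0.028), ANKRD52 (0.059) and CCDC141 (0.059). With 3 arrays such likeness rests on 2 differences per gene, which share the control array.

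Other genes that act with the clamp were described by lists, counting the genes past that threshold. Over all tested genes 0.714% passed lower and 0.248% higher. At an unadjusted p under 0.05 (limma), 11.3% were lower and 833 of 12892 higher. The list of the checkpoint clamp and its loader had 6 tested genes of 7, of which 0 passed in either direction (limma; 3 lower and 1 higher at an unadjusted p under 0.05), and its median difference was -0.26. RAD17, which takes the place of RFC1 in the checkpoint loader, read 6.23 with siSE1 and 6.34 with siSE2, against 6.69 on the control array. Among the other genes RHNO1, which binds the checkpoint clamp, had a difference of -0.54 ± 0.14 and RAD1, a ring subunit, of -0.36 ± 0.14. HUS1, a further ring subunit, stood on the other side, at 9.09 with siSE1 and 9.05 with siSE2, against 8.73 on the control array, without passing. The genes of this ring thus did not share 1 direction.

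The lagging strand enzymes and the clamp-bound polymerase delta had 9 tested genes of 10, of which 0 passed (limma; 3 lower and 0 higher at an unadjusted p under 0.05), with a median of -0.18. DNA2, a nuclease that cuts long flaps, had a difference of -0.54 ± 0.14. RNASEH2A and RNASEH2B, of the enzyme that removes ribonucleotides from DNA, had -0.48 ± 0.14 and -0.44 ± 0.16, and LIG1, which seals Okazaki fragments, -0.25 ± 0.14. The subunits of polymerase delta, named after their values were seen, ranged from -0.18 (POLD1) to 0.25 (POLD4), with POLD3 at -0.10 and POLD2 at 0.01. For POLD4 the siRNAs disagreed, at 0.49 with siSE1 and -0.002 with siSE2. The means of these polymerase subunits lie nearer to 0 than those of the loader subunits, though POLD4 with siSE1 alone does not. That difference was not tested.

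Of 30 tested clamp partners and modifiers (of 31), 1 rose and 1 fell (limma; 9 lower and 2 higher at an unadjusted p under 0.05). The median was -0.16. CDKN1A, which encodes p21, a CDK inhibitor that also binds PCNA, read 9.71 with siSE1 and 9.85 with siSE2, against 8.41 on the control array. It rose 2.58-fold (1.37 ± 0.15, limma adjusted p = 0.0147). PCNA read lower on the same arrays without passing, and a relation between these genes was not tested. EXO1, a nuclease of mismatch repair, fell 1.72-fold, to 6.85 with siSE1 and 6.77 with siSE2, against 7.59 on the control array (limma, adjusted p = 0.0428). USP1 and WDR48, the deubiquitinase of PCNA and its cofactor, were named after their values were seen, and had differences of -0.60 ± 0.14 and -0.19 ± 0.14 that did not pass.

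Among 16 tested genes of cohesion at the fork (of 17) 2 fell and 0 rose (limma; 8 lower and 0 higher at an unadjusted p under 0.05). Their median was -0.34, and 15 of the 16 read lower on both siRNA arrays, where 41.7% of all tested genes did. TIPIN, of the fork protection complex, fell 1.76-fold (limma, adjusted p = 0.0382). WDHD1, an adaptor between helicase and polymerase alpha, fell 1.69-fold (limma, adjusted p = 0.0471). Among 25 helicase, primase and other fork genes 17 were lower and 1 higher at an unadjusted p under 0.05 (limma). Past the adjusted threshold 4 fell (GINS4, CDC45, MCM4 and GINS3) and 1 rose, and the median of -0.47 was close to the -0.50 of the clamp and loader genes. These 4 genes of the replicative helicase fell by 1.15, 0.92, 0.88 and 0.85 on the log2 scale in that order. GINS1, named after its values were seen, had the lowest mean difference of the list (-1.30 ± 0.44) and did not pass. For GINS1 the siRNAs differed in size, at -2.05 with siSE1 and -0.56 with siSE2. The gene that rose was RPA1, the large subunit of the single-strand binding protein. RPA1 read 8.49 with siSE1 and 8.40 with siSE2, against 7.66 on the control array, 1.72-fold higher (0.78 ± 0.14; limma, adjusted p = 0.0428). RPA2 and RPA3, its partners, were named after their values were seen and had differences of -0.18 ± 0.14 and -0.25 ± 0.14. With no filter on dim genes the calls of all 9 genes named here as risen or fallen outside the set were lost (limma, adjusted p from 0.0927 for CDKN1A and GINS4 to 0.136 for WDHD1). With a filter at the 50th percentile those of EXO1, TIPIN, WDHD1, CDC45, MCM4, GINS3 and RPA1 were lost (limma, adjusted p from 0.0503 to 0.0559), and with equal array medians those of WDHD1 and RPA1 (0.0519 and 0.0639).

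Of 12 mitotic and proliferation markers 0 passed, with 7 lower and 0 higher at an unadjusted p under 0.05 (limma). On both siRNA arrays 11 of the 12 read lower, where 41.7% of all tested genes did, and the median was -0.39. MKI67 had a difference of -0.68 ± 0.15, TOP2A of -0.56 ± 0.14, CCNA2 of -0.53 ± 0.14 and AURKA of -0.43 ± 0.14. CDK1 and AURKB were named after their values were seen. CDK1 stood at -0.02 with siSE1 and 0.16 with siSE2, and AURKB at -0.04 with siSE1 and -0.68 with siSE2. The markers other than CDK1 stood lower on the same arrays as the clamp and loader genes. The part of the proliferation markers in the result was not tested. Basal markers averaged 5.61 with siSE1 and 5.71 with siSE2, against 5.47 on the control array (5 of 6 measured). Stromal markers averaged 5.46 with siSE1 and 5.41 with siSE2, against 5.44 on the control array (8 of 8), and blood cell markers 5.25 with siSE1 and 5.12 with siSE2, against 4.83 on the control array (5 of 6). None of these 3 lists had a gene that passed (limma; 1 stromal gene lower and 1 blood cell gene higher at an unadjusted p under 0.05). The markers PTPRC and CD3E of blood cells and DCN and LUM of stroma lay below the filter level of 5.12 on every array. The other measured blood cell markers, CD14, CD68 and LYZ, and the stromal markers VIM, ACTA2, COL1A1, COL1A2, COL3A1 and PDGFRB passed the filter. CD14, CD68 and LYZ read higher on both siRNA arrays, where 4695 of the 12892 tested genes did, without passing the test. LYZ, which encodes lysozyme and was at least 1.5-fold higher with both siRNAs, read 6.09 with siSE1 and 5.11 with siSE2, against 4.41 on the control array. Its siSE2 and control readings lie under the filter level, so LYZ passed the filter only through siSE1, and the siRNAs differed by 0.99. The control reading of CD14 (5.03) also lies under that level. The part of these markers in the result was not tested.

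**Figure D3:**
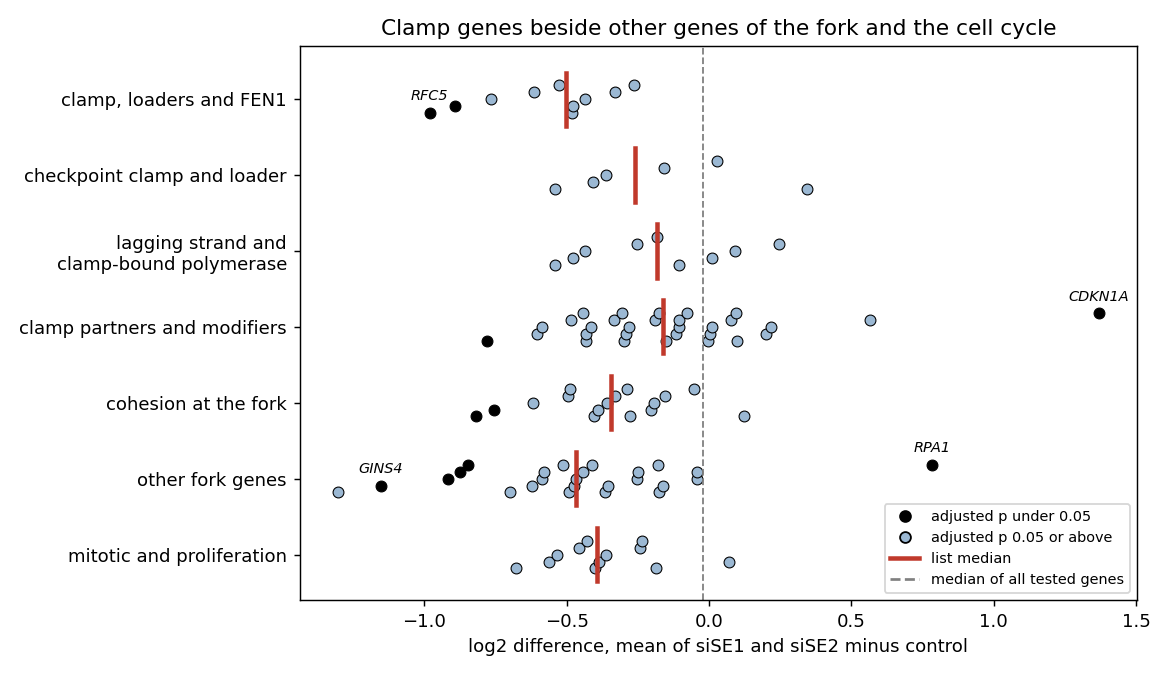
Log2 difference (mean of siSE1 and siSE2 minus control) of each tested gene in the clamp and loader set and in the lists of related genes. Each point is a gene, black where limma gave an adjusted p under 0.05, red bars are list medians and the dashed line is the median of all tested genes (-0.02). All 10 clamp and loader genes lie left of 0, while CDKN1A and RPA1 are the black points to the right.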

How the data were processed

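Gene expression was measured on 3 one-colour Affymetrix arrays of LNCaP cells. The authors deposited 1 table of 33297 probe sets with log2 values; the submitters' processing notes name Affymetrix Expression Console as their tool. That the scale is log2 was taken from the values. Its algorithm, background correction, between-array normalization and build are unstated in those sources. The platform's annotation gave 1 gene to 19460 probe sets (19429 matched by gene identifier to the RefSeq gene table of GRCh38.p14, used for current symbols), several genes to 1754 and none to 12083. Probe sets were averaged per gene. Of 18417 genes, the 5525 with a mean over the arrays under the 30th percentile (log2 5.12) were dropped as dim.

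The siRNA arrays (n = 2) were compared with the control array (n = 1) by limma 3.58.1 in R 4.3.3 (lmFit, eBayes; two-sided; Benjamini-Hochberg over 12892 genes; threshold 0.05). Values given as ± are moderated SEs, which draw mostly on the variance of all tested genes. Precision is limited by the number of arrays. The script was tested on simulated data. Motifs were searched on both strands of the 250 bases before each RefSeq start. The genes, lists, motifs and tests were chosen with earlier results of these data known. All 10 genes were named. From each other list the genes that passed were named, or, where none passed, up to 4 genes with the largest smaller change in 1 direction; exceptions are marked. For RFC4 and RFC5 the 3 nearest genes were named. Alternatives covered the normalization, the filter, the probe set summary, the variance prior and leaving out each siRNA array. Some listed genes are not analysed here.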

Additional observations from a re-analysis of the deposited data

How the results depend on the processing

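All 10 genes stayed below the control under every alternative run that kept them, RFC5 between -1.04 and -0.91 and RFC4 between -0.96 and -0.83 (log2). The ends come from leaving out 1 siRNA array, which gives a value with no test and repeats the siSE1 or siSE2 difference given above. The filter, the probe set summary and the variance prior cannot change the difference of a gene with 1 probe set. Only the other normalizations could have turned a sign. The median of the 10 ran from -0.58 to -0.45. RFC4 and RFC5 passed under each alternative with a test except no filter, where RFC4 had limma adjusted p = 0.118 at a difference of -0.89 and RFC5 0.0958 at -0.98. With no filter 0 of the 10 genes and 0 genes of every related list passed in either direction (9 of the 10 were lower at an unadjusted p under 0.05), and over all genes 0 were called lower and 1 higher (1503 and 1148 unadjusted). That setting tests 18417 genes in place of 12892 and brings in the dim ones. With a filter at the 50th percentile, where DSCC1 was not tested, RFC4 had adjusted p = 0.0496. In that setting 20 genes were lower and 15 higher, 0 clamp partners and 0 cohesion genes were called lower, and 1 of the other fork genes was called lower and 0 higher. Against 32 genes called higher in the report's setting, quantile normalization gave 63, equal array medians 21 and the trended prior 52. With equal array medians 4 of the 10 genes were at least 1.5-fold lower with both siRNAs, 1 cohesion gene was called lower and 0 other fork genes, RPA1 included, were called higher. With the highest probe set per gene 2 clamp partners were called higher. The causes were not tested. No paired analysis was possible because the control group has 1 array. With 3 arrays and 1 residual degree of freedom, adjusted p-values near 0.05 move with the set of genes tested.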
